A study of Mus musculus with 26 samples.

Results

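The comparison described here is the difference between wild-type (WT) and deathless (D-) S49 cells in their gene expression response to 24 h of a cyclic AMP (cAMP) analogue. S49 is a mouse T lymphoma line, and D- is a variant of it whose cells survive raised cAMP. Of the 26 single-colour Affymetrix arrays of the series, 14 bear on the comparison: 4 of untreated WT, 3 of WT treated for 24 h with 8-CPT-cAMP, 4 of untreated D- and 3 of D- treated for 24 h. The other 12 arrays, taken at 2 and 6 h, are used for the time course. All cells belong to 1 of these 2 lines, the labels give no transgene, do not say whether D- is a single clone, and name the same agent, 8-CPT-cAMP, for every treated group, with a dose of 100 mM whose unit may be an error. For every gene the quantity is the 24 h change of D- minus the 24 h change of WT, on the log2 intensity scale, called here the difference of response. All genes with a log2 intensity of 5 or more on at least 3 arrays were kept, which left 7435 genes, 1 probe set each, from 12724 of 22626 probe sets. Just inside that limit a probe set reached, on the last of its 3 highest arrays, 5.0004 and just outside it 4.9991.

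cAMP activates protein kinase A, which phosphorylates the transcription factor CREB and, in lymphoid cells, commonly stops the cell cycle before DNA replication. In S49 cells this arrest is followed by death through the mitochondrial pathway, in which the BH3-only protein Bim, encoded by Bcl2l11, is a known effector. Genes of DNA replication are commonly driven by E2F factors and genes of mitosis by complexes that bind CHR elements and CCAAT boxes in their promoters, so both groups fall when cells stop cycling.

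Calls were made at a limma adjusted p under 0.05 (moderated test on all 26 arrays, Benjamini-Hochberg adjustment over 12724 probe sets), and genes called for the difference of response were put into classes by which line's own 24 h change was called. A damped response was called in both lines with the same direction and smaller in D-, a lost response was called in WT but not in D-, and a reversed response was called in both lines with opposite directions. A D- only response was called in D- but not in WT, and an amplified response was called in both lines with the same direction and larger in D-. Lost and D- only therefore say which test was passed, and not that the other line's change was 0. The labels call the replicates biological but describe no separate cultures. What the p-values weigh is thus the variation among these arrays, part or all of which could be technical.

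Arrays were split into 2 clusters by their sign on the main axis of variance within groups, and the labels name no such clusters. Replicate 1 of each treated group and replicates 1 and 2 of each untreated group fell in the first, and all others in the second. Such a rule splits any set of arrays in 2. The axis carried 38.8% of the variance within groups. Values given within a cluster come from the same arrays that defined it. Of 6 T cell markers on the array, 5 had a mean of at least 5 in untreated WT and 4 in untreated D-, where Cd247, the CD3 zeta chain, averaged 4.60 against 9.34 in WT. Cd5 was near 3 in all groups. Of 9 myeloid markers Lyz2, Cd14, Mpo, S100a8 and Cd68 averaged under 4 in every group, Csf1r, S100a9 and Adgre1 between 5.02 and 5.83, and Itgam went from 4.05 to 6.24 in WT and from 4.42 to 5.84 in D-. The B cell marker Ighm went from 8.93 to 6.63 in WT and from 9.09 to 5.47 in D-, and the stromal marker Acta2 from 7.56 to 9.03 and from 7.83 to 8.15. None of Itgam, Ighm and Acta2 was called for the difference, and their part in the results was not tested. The difference of 3′ and 5′ Gapdh probe sets, a measure of RNA integrity, averaged 0.096 ± 0.196 (SD, n = 3) in WT and -0.093 ± 0.142 (SD, n = 3) in D- at 24 h.

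In 916 of 7435 genes the 24 h response differed between the lines, a share of 12.3%, and in 459 (6.17%) by at least 1 on the log2 scale. D- minus WT was above 0 in 544 genes (7.32%) and below 0 in 372 (5%). Across all 12724 probe sets 1500 were called (11.8%), 903 above and 597 below 0. The 24 h change itself was called in 4002 genes in WT (53.8%; 26.4% higher and 27.5% lower) and in 2581 in D- (34.7%; 17.1% higher and 17.6% lower). The last gene called was Prps2, with an adjusted p of 0.0496 and a difference of 0.98, and the first not called was Mycbp, with 0.05 and 0.57. The number of probe sets called for the difference was 2352 without replicate 1 of WT at 24 h and 962 without replicate 2 of that group. It was 2277 within the second array cluster alone. Within the first cluster, which has 1 treated array per line and 2 residual degrees of freedom, it was 5, with 2625 at an unadjusted p under 0.05.

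Most called genes responded less in D-. Lost responses made up 504 genes, 55% of those called and 6.78% of those tested, and damped responses 267 (29.1% and 3.59%). Reversed responses numbered 34 (0.457% of those tested), D- only responses 67 (0.901%) and amplified responses 38 (0.511%). The remaining 6 genes (0.0807%) passed the test of the difference but neither line's own test. Among the 504 lost genes the change in D- lay on the side of the WT change in 355 and on the other side in 149. It was under 25% of the WT change, on the same side, in 278. No gene of the class had a change in D- above 50% of that in WT. Without replicate 2 of WT at 24 h the counts were 174 damped, 320 lost and 21 reversed genes, without replicate 1 of that group 521 were damped, and without replicate 3 of it 23 were amplified.

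**Figure D1:**
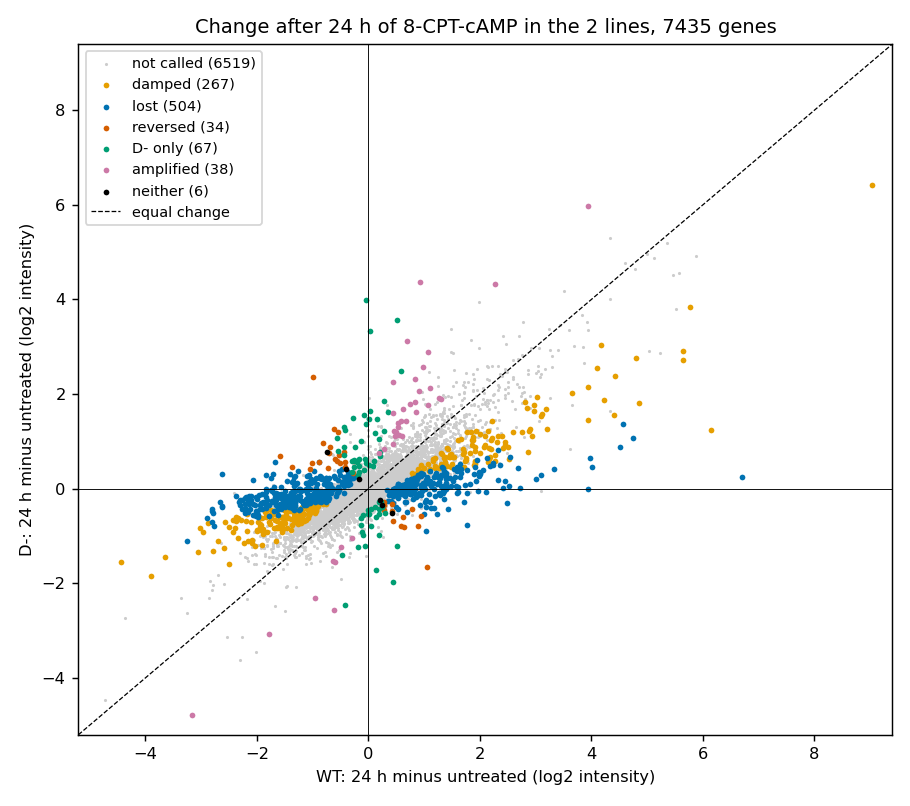
Each point is 1 of 7435 genes, with the change after 24 h of 8-CPT-cAMP in WT on the horizontal axis and in D- on the vertical axis, both in log2 intensity, and colours give the class. The 504 lost genes lie along the horizontal line at 0, the 267 damped genes between that line and the dashed line of equal change, and the 67 D- only genes along the vertical line at 0.

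A comparison that starts from the WT response asks how much of it D- kept. Of 1521 genes (20.5%) called in WT with a change of at least 1, 1062 (69.8%) were called in the same direction in D-, 6 in the opposite direction and 453 not at all. The median ratio of the D- change to the WT change was 55.5%. It was 60% for the 791 genes that rose in WT and 50.7% for the 730 that fell. The difference itself was called in 28.4% of the former and 45.1% of the latter. Read the other way, 612 (92%) of the 665 genes (8.94% of all) called in D- with a change of at least 1 were called in the same direction in WT, with a median ratio of WT to D- of 106%. Choosing genes by the size of the change in 1 line favours a larger value in that line, and the 2 ratios have that in common.

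Genes that fell in WT and were held in D- included many of the cell cycle. Of 44 measured genes of DNA replication and S phase, 41 were called with D- above WT and 0 with D- below, against 7.32% and 5% of all genes. The median change of the list was -1.95 in WT and -0.28 in D-, where all genes had medians of 0.00 and -0.02, and the median difference was 1.48. In WT 43 of the 44 fell, and in D- 6 fell and 2 rose. By class 34 of the genes were lost, 5 damped and 2 reversed. The median difference was 1.08 within the first array cluster and 1.84 within the second, and it lay between 1.20 and 1.87 when single arrays were left out, with 35 to 42 genes called.

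Cdc6, which loads the replicative helicase onto origins, shows the pattern array by array. Its log2 intensity was 11.72, 11.57, 11.59 and 11.44 on untreated WT arrays and 10.15, 7.57 and 8.61 after 24 h. On D- arrays it was 11.71, 11.80, 11.25 and 11.48 untreated and 11.61, 10.67 and 11.01 after 24 h. All 3 treated WT arrays lay below every other array of the 14, whereas treated and untreated D- arrays overlapped. Cdc6 fell by 2.80 ± 0.35 (SE) in WT, the change in D- was -0.47 ± 0.35, and the difference of response was 2.34 ± 0.50 (limma adjusted p = 0.00313). Replicate 1 of treated WT stood above the other two, and the difference was 1.35 within its array cluster and 2.89 within the other.

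Other members of the list differed in the same direction. Cdc45, a subunit of the replicative helicase, fell by 2.62 in WT against a change of -0.39 in D- (difference 2.23 ± 0.31, limma adjusted p = 7.49e-05). Rfc3 of the clamp loader had a difference of 2.07 ± 0.59 and Ung, the uracil-DNA glycosylase that acts at replication forks, one of 2.15 ± 0.68. Neither was called without replicate 2 of treated WT (1.75 and 1.67). Prim1 and Prim2, the 2 subunits of primase, were the reversed members. Prim1 read 11.92, 11.84, 11.84 and 11.80 on untreated and 11.47, 10.25 and 10.80 on treated WT arrays, and 11.95, 11.80, 11.78 and 11.76 on untreated and 12.39, 12.20 and 12.51 on treated D- arrays. It thus fell on every treated WT array and rose on every treated D- array relative to all untreated arrays of its line, with a difference of 1.56 ± 0.24 (limma adjusted p = 0.000181), and Prim2 had one of 1.47 ± 0.21.

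Mitotic genes also fell in WT and were mostly not called in D-. Of 53 measured genes of mitosis and G2/M, 45 were called with D- above WT and 0 below, against 7.32% and 5% of all genes. By class 35 were lost and 10 damped. The median difference was 1.32, with median changes of -1.56 in WT and -0.19 in D-. Within the first array cluster the median difference was 0.80 and within the second 1.65. Aurkb, the kinase of the chromosomal passenger complex, read 10.75, 10.88, 10.52 and 10.66 on untreated and 8.77, 7.22 and 7.48 on treated WT arrays. On D- arrays it read 10.82, 10.75, 10.68 and 10.51 untreated and 10.32, 9.71 and 9.88 treated. Every treated D- array was below the untreated ones of its line and above every treated WT array, so the fall was damped (2.88 in WT, 0.72 in D-, difference 2.16 ± 0.35, limma adjusted p = 0.000245). The checkpoint kinase Ttk (Mps1) fell by 1.75 in WT with a change of 0.22 in D-, and the kinetochore gene Cenph fell by 2.14 with a change of -0.32. The cytokinesis gene Anln fell in both lines, by 2.38 in WT and 0.59 in D-.

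The promoters of these genes were searched for the sites named above, in RefSeq windows of 300 bases that run from 250 bases before to 50 after the start of transcription (GRCm38.p6), on both strands. The letters searched were TTTGGCGC and TTTCCCGC for E2F, TTTGAA for the CHR element, CCAAT for the CCAAT box and TGACGTCA for the cAMP response element, none of which contains another. A window was found for 36 of the 44 replication genes (45 windows) and for 44 of the 53 mitotic genes (47 windows). Either E2F sequence was in 26.7% of the replication windows and 4.26% of the mitotic windows, against 3.26% of windows of all genes tested and 1.56% of all 32851 windows. TTTGAA was in 72.3% of the mitotic and 17.8% of the replication windows, against 12% for genes tested and 17.9% for all windows. CCAAT was in 78.7% and 51.1%, against 37.9% and 37.4%. These matches are letters in a window and not shown to be bound sites.

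By class, either E2F sequence was in 13.2% of 302 windows of lost genes that fell in WT, in 7.38% of 149 windows of damped genes that fell and in 1.28% of 234 windows of lost genes that rose. The cAMP response element was in 2.98% of the windows of lost genes that fell, in 2.56% of those that rose and in 3.09% of the windows of genes tested. Upstream stretches are shown for some of the genes described here, chosen because each holds a match before the start site. The stretches of Anln, Cenph, Chek1 and Tk1, searched in the same way, hold none. Those of the replication genes Cdc45 and Prim1 hold a CCAAT box but no E2F sequence. The replication gene Cdc6 has an E2F sequence, as does the nucleolar gene Nolc1, which fell in both lines and was damped in D-. The mitotic gene Ttk has CCAAT boxes, and the E2F family repressor E2f8 has a CHR sequence and a CCAAT box. Each stretch gives the last 150 bases before the start, 5′ to 3′ on the strand of the gene, with matches on either strand in capitals.
Cdc6, chr11:98908001-98908150 on the plus strand: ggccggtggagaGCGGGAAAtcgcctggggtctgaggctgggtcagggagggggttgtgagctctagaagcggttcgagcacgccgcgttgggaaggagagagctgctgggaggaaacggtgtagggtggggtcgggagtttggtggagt
Nolc1, chr19:46075697-46075846 on the plus strand: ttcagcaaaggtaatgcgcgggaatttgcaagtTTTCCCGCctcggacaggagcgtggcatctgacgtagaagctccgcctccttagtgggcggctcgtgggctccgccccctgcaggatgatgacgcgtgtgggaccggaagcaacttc
Ttk, chr9:83834539-83834688 on the plus strand: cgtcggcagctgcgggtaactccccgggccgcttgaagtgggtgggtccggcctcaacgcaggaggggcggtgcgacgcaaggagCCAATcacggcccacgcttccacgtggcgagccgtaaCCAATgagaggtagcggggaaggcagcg
E2f8, chr7:48881597-48881746 on the minus strand: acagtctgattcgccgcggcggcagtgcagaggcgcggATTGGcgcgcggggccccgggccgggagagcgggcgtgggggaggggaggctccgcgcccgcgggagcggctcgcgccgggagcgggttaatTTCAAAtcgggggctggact

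DNA repair, nucleotide synthesis and G1 genes differed in the same direction. Of 25 DNA repair and damage checkpoint genes 17 were called with D- above WT and 0 below, against 7.32% and 5% of all genes. The median difference of the list was 0.83. Chek1, the kinase that restrains entry into mitosis, fell by 2.80 in WT with a change of -0.42 in D- (difference 2.39 ± 0.42, limma adjusted p = 0.000554), with 2.43 on another probe set and 0.23, not called, on the other one. The recombination genes Rad51ap1 and Rad54l had differences of 2.22 and 2.04, and the exonuclease Exo1 fell in both lines, by 2.57 in WT and 0.71 in D-.

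Of 28 genes of nucleotide and polyamine synthesis 11 were called with D- above WT and 0 below, against 7.32% and 5% of all genes. The median difference of the list was 0.70. Tk1, the thymidine kinase of S phase, read 10.44, 10.54, 9.91 and 9.98 untreated and 8.54, 6.83 and 7.30 treated in WT, and 10.16, 10.07, 9.88 and 9.75 untreated and 10.28, 9.27 and 9.49 treated in D-. The treated WT arrays lay below all others, and the D- arrays overlapped (difference 2.38 ± 0.43, limma adjusted p = 0.000784). Both subunits of ribonucleotide reductase were lost, Rrm1 with a WT change of -1.67 against -0.17 in D- and Rrm2 with -1.83 against -0.06. Dtymk, the thymidylate kinase, changed by -0.97 in WT against 0.37 in D-.

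Among 22 G1 cyclins, CDK inhibitors and pocket proteins 7 were called with D- above WT and 0 below. The shares over all genes were 7.32% and 5%, and the median difference of the list was 0.42. Ccne2, cyclin E2, fell by 3.64 in WT and by 1.45 in D-, and Skp2, the F-box protein that targets the CDK inhibitor p27, by 2.79 and 1.31. E2f8 fell by 2.11 and 0.71. Cdk2 was reversed, with -0.59 in WT and 0.62 in D-. Ccnd3, cyclin D3, fell by 1.43 in WT with a change of -0.35 in D- (difference 1.07 ± 0.28, limma adjusted p = 0.0149). Cdkn1b, which encodes p27, rose by 1.50 in WT and 1.12 in D-, and the difference of -0.39 ± 0.42 was not called (limma adjusted p = 0.639).

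Further lost genes with large differences among those that fell in WT were Nrm of the inner nuclear membrane (-2.63 in WT, 0.31 in D-), Cdca7, a partner of the remodeller Hells (-2.07 and 0.18), Lrr1, a receptor of the ubiquitin ligase that unloads the replicative helicase (-2.78 and -0.51), and the recombination ATPase Fignl1 (-2.62 and -0.36). Hells itself was damped, with -3.01 and -0.83, as were the anaphase translocase Ercc6l (-2.97 and -0.91) and Lmnb2, lamin B2 (-2.42 and -0.66). Among 25 chromatin-modifying enzymes 6 were called with D- above WT and 0 below, against 7.32% and 5% of all genes. The maintenance DNA methyltransferase Dnmt1 changed by -1.50 in WT against -0.16 in D-, and Ezh2 of the Polycomb complex by -1.13 against -0.02. Hdac7 was reversed (-0.88 and 0.56).

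**Figure D2:**
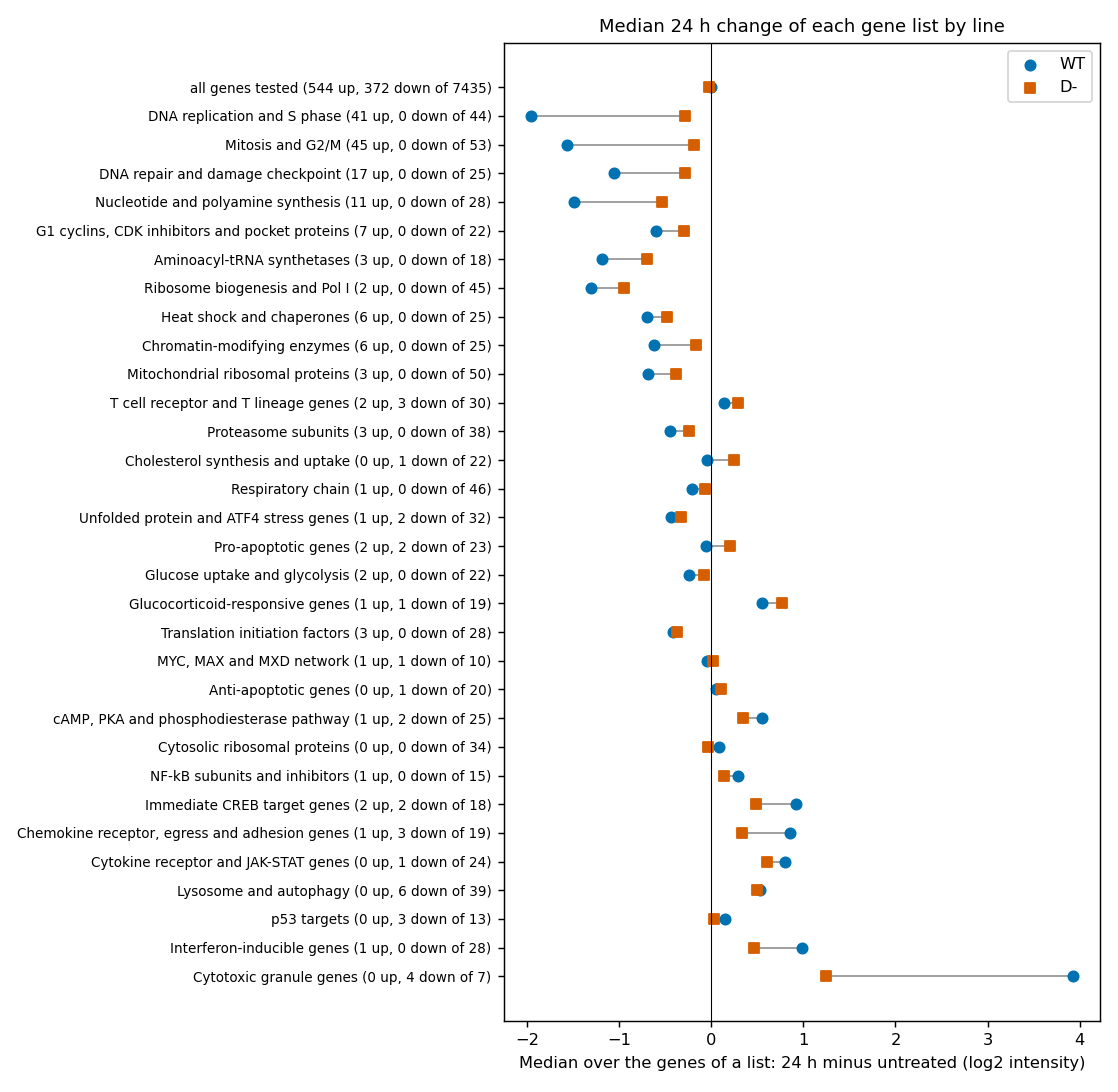
For each of 31 gene lists and for all genes tested, circles give the median change from untreated at 24 h in WT and squares that in D-, in log2 intensity, with the number of genes called for the difference in each direction in brackets. The widest gaps below 0 are those of DNA replication (-1.95 and -0.28) and mitosis (-1.56 and -0.19), whereas the medians for ribosome biogenesis are -1.30 and -0.95.

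The separation of cell cycle genes appeared between 6 and 24 h. At 6 h the replication genes had a median change of -0.29 in WT and -0.40 in D-, with 12 genes that fell in WT and 18 in D-, against 19.1% and 15.6% of all genes. At the same time the mitotic genes had medians of 0.24 in WT, where 16 rose, and 0.11 in D-, where 3 rose, against 19.1% and 16.2% of all genes. No gene of either list was called for a difference of response at 2 or 6 h in limma, when 18 genes (0.242%) and 44 genes (0.592%) of all 7435 were called. From 6 to 24 h the median of the replication list went from -0.40 to -0.28 in D- and from -0.29 to -1.95 in WT. All times of a line were compared with the same untreated arrays.

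**Figure D3:**
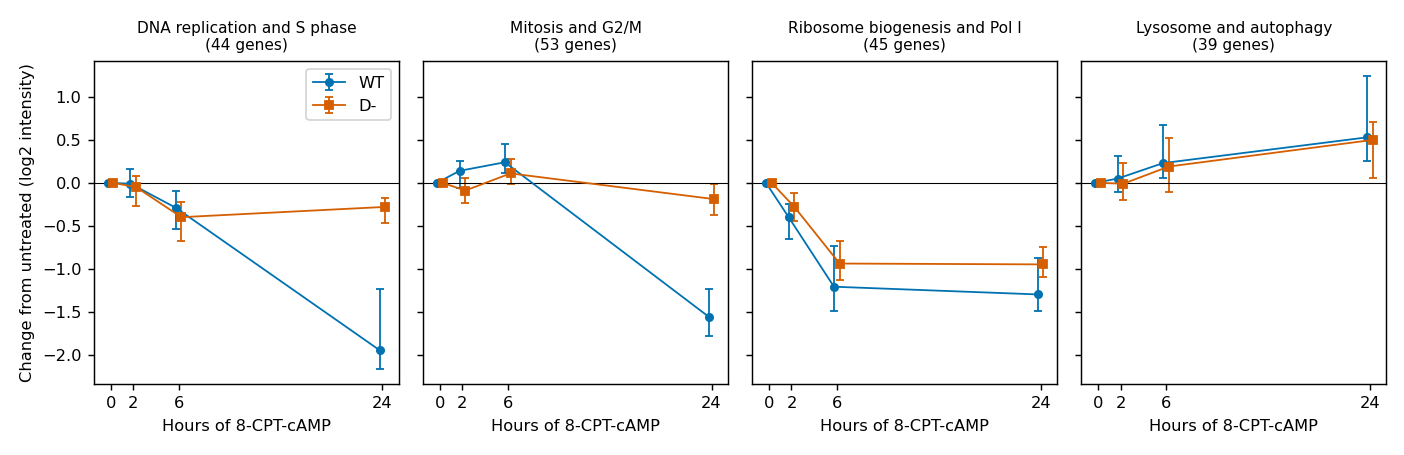
Median change from untreated, in log2 intensity, of the genes of 4 lists after 0, 2, 6 and 24 h of 8-CPT-cAMP, with WT as circles and D- as squares and bars spanning the middle quartiles over genes, not replicates. For DNA replication the lines lie together at 6 h (-0.29 in WT and -0.40 in D-) and apart at 24 h (-1.95 and -0.28), and for ribosome biogenesis both lines lie near their 6 h values at 24 h.

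Genes of ribosome biogenesis fell in both lines. Of 45 genes of ribosome biogenesis all 45 fell in WT and 40 in D-, with medians of -1.30 and -0.95, and 2 were called for the difference (4.44%, below the 12.3% of all genes). These were the nucleolar phosphoprotein gene Nolc1, which fell by 2.08 in WT and 1.08 in D-, and Pa2g4, which binds ribosomal precursors and fell by 2.08 and 1.15. Averaging the probe sets of each gene gave 0.86 and 0.69, neither called. The fitted difference was above 0 in 41 of the 45 genes. With single arrays left out 0 to 13 of them were called, and with array weights 8, all with D- above WT. Gnl3, nucleostemin, fell by 2.05 and 1.08, with a difference of 0.98 ± 0.45 that was not called (limma adjusted p = 0.18). Myc itself fell by 2.16 in WT and 1.52 in D-, and its antagonist Mxd4 rose by 3.29 and 2.58, with no call for either difference. In the list of 10 MYC, MAX and MXD genes the 2 calls (20%) were Mxd3 (-0.87 in WT, 0.23 in D-) and Mlxip (0.80 and -0.01).

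Of 18 aminoacyl-tRNA synthetases 3 were called (16.7%, against 7.32% of all genes with D- above WT), all with D- above WT, among them Yars (fell by 1.64 and 0.83) and Vars. Of 25 heat shock genes 6 were called (24%), all with D- above WT, with 3 without replicate 2 or 3 of WT at 24 h and 9 without replicate 1, and the co-chaperone Stip1 had the largest difference (-1.36 in WT, -0.43 in D-), followed by Hsph1 (-1.52 and -0.67). In the same direction 3 of 28 translation initiation factors, 3 of 38 proteasome subunits, 3 of 50 mitochondrial ribosomal proteins, 1 of 46 respiratory chain genes, 2 of 22 glycolysis genes and 0 of 34 cytosolic ribosomal proteins were called. At an unadjusted p under 0.05, 3138 of 12724 probe sets of all kinds passed. In the list of 32 unfolded protein and ATF4 stress genes the serine synthesis gene Psat1 had D- above WT (difference 1.11 ± 0.31), and Atf6 and Ppp1r15a, a phosphatase subunit that restores translation, had D- below WT.

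Among genes that rose in WT and were not called in D-, Ctla2b, which encodes a cysteine protease inhibitor of activated T cells, read 3.21, 2.99, 3.17 and 2.96 on untreated and 9.50, 10.20 and 9.67 on treated WT arrays. On D- arrays it read 3.11, 2.67, 3.21 and 3.17 untreated and 3.01, 3.19 and 3.63 treated. Of the 14 arrays it was above log2 5 on the 3 treated WT arrays alone, so its rise in WT is at least 4.79 and no fold is given for D-. Its call rests on the group in which it is high. The closely related Ctla2a rose in WT by 6.14 and in D- from a mean under 5 by at least 0.75 (fitted difference -4.89 ± 0.50). Whether probes of one gene also bind the other was not tested.

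Cd28, the main costimulatory receptor of T cells, read 9.41, 8.87, 9.88 and 9.39 untreated and 11.01, 12.47 and 12.16 treated in WT. In D- it read 9.53, 9.39, 9.71 and 9.97 untreated and 8.64, 9.76 and 9.63 treated. All treated WT arrays lay above all others, and the D- groups overlapped, with a rise of 2.49 ± 0.33 (SE) in WT, a change of -0.31 ± 0.33 in D- and a difference of -2.80 ± 0.46 (limma adjusted p = 0.000306). A second probe set gave a difference of -2.70. Prkcq, protein kinase C theta, which signals downstream of CD28 and the T cell receptor, read 7.63, 7.45, 8.45 and 7.96 and then 10.49, 11.47 and 10.91 in WT, and 8.16, 7.70, 6.78 and 7.62 and then 7.80, 7.91 and 7.90 in D-. Its treated D- arrays lay within the range of the untreated ones of that line, and the difference was -2.78 ± 0.41 (limma adjusted p = 0.000119).

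Among other lost inductions the lymph node homing receptor Ccr7 averaged under log2 5 in all groups but treated WT, a rise of at least 2.83. The chemokine receptor Cxcr6 did likewise, with a rise of at least 2.59. For Cxcr6, unlike Ccr7, the changes on single arrays overlapped between lines, with 2.35 to 5.91 in WT and -0.01 to 2.95 in D-. The calls of Ccr7 and Cxcr6 rest on treated WT, the group in which they are high. Of 19 chemokine receptor, egress and adhesion genes, both among them, 3 were called with D- below WT and 1 above. The shares of all genes were 5% below and 7.32% above. The number below was 2 without replicate 2 or 3 of WT or replicate 1 or 3 of D- at 24 h and 7 without replicate 1 of WT. Serpinb9, an inhibitor of granzyme B, rose by 2.11 in WT against -0.07 in D-, and Slfn2, a gene of T cell quiescence, by 2.33 against 0.18. The sphingolipid enzymes Ugcg, glucosylceramide synthase, and Cers4, a ceramide synthase, rose by 1.97 and 1.71 in WT against -0.05 and -0.29 in D-.

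The list of cytotoxic granule genes includes the protease inhibitor gene Ctla2b, described above, whose call rests on treated WT. Of its 7 measured members 4 were called with D- below WT and 0 above, against 5% of all genes below, and 3 differed by at least 1. Gzmb, granzyme B itself, was not one of them: it averaged 4.69 untreated and 9.03 treated in WT and 6.82 and 12.12 in D-, with untreated D- arrays at 10.91, 4.46, 5.92 and 6.00 and a difference of 0.96 ± 1.51 (limma adjusted p = 0.768). Scg5, a secretory chaperone, rose by at least 4.22 in WT, and its change in D-, from a mean of 4.45 to 5.53, was not called. The flagellin sensor Naip5 rose by 4.51 in WT and stayed under log2 5 in D-, where it was already lower untreated (means 2.38 against 5.51). Tsc22d1, a transcription factor, rose by 1.03 in WT against -0.90 in D-, where its untreated level was higher (13.08 against 10.89) and treated arrays of the lines overlapped.

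Of 30 T cell receptor and T lineage genes 2 were called with D- above WT and 3 below, a share of 16.7% against 12.3% of all genes. Rag1, the recombinase of antigen receptor assembly, read 11.40, 11.57, 12.01 and 11.53 untreated and 7.25, 7.36 and 6.98 treated in WT, and 12.25, 12.24, 11.58 and 11.65 untreated and 10.67, 9.98 and 10.52 treated in D-. The 4 groups separate except for the untreated arrays of the 2 lines, and the fall was 4.43 in WT and 1.54 in D- (difference 2.89 ± 0.38, limma adjusted p = 3.99e-05). At 6 h it had fallen by 5.50 in WT and 4.09 in D-. Bcl11b, a transcription factor of T cell commitment, fell by 1.07 in WT with a change of 0.29 in D-. Cd247 rose by 0.91 in WT and stayed under log2 5 in D-. Ptcra, the pre-T cell receptor alpha chain, fell by at least 4.57 in WT and by 4.46 in D-, with no call for the difference.

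Bcl2l11 was induced in both lines and less in D-. Its log2 intensity was 9.19, 8.86, 9.05 and 9.13 on untreated and 11.31, 12.44 and 12.10 on treated WT arrays. On D- arrays it was 9.34, 9.69, 9.16 and 9.58 untreated and 10.14, 10.94 and 11.07 treated. The treated D- arrays lay above all untreated arrays and below all treated WT arrays. The rise was 2.90 ± 0.22 (SE) in WT and 1.27 ± 0.22 in D-, and the difference -1.62 ± 0.31 (limma adjusted p = 0.0012), with -1.67 within the first array cluster and -1.55 within the second. Of 4 other probe sets of the gene, 2 were called in the same direction (-1.22 and -0.93), 1 was not called at -1.25, and 1 that changed little in either line (0.37 and 0.42) gave 0.06.

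Of 23 pro-apoptotic genes 2 were called with D- above WT and 2 below (17.4%, against 12.3% of all genes), the latter Bcl2l11 and the death-associated kinase gene Stk17b, which rose by 2.07 in WT and 0.89 in D-. Of 20 anti-apoptotic genes 0 were called with D- above WT and 1 below (5%), Birc3, the ubiquitin ligase cIAP2 (1.92 in WT, 0.47 in D-). Mcl1 had a difference of 0.35 ± 0.21 (limma adjusted p = 0.325) and Bcl2, at means between 5.12 and 5.46, one of 0.05 ± 0.22 (limma adjusted p = 0.93). Probe sets of Mcl1 disagreed. Another one was called with D- above WT (0.58 ± 0.17, limma adjusted p = 0.0268), and the rest, between -0.41 and -0.14, were not called. Of 13 p53 targets 3 were called (23.1%), all with D- below WT, with 1 without replicate 2 of WT or replicate 1 of D- at 24 h and 5 without replicate 1 of WT: Trp53inp1 (rose by 2.59 and 1.19), Sesn1 (rose by 2.20 and 1.03) and Zmat3, a D- only gene (-0.06 in WT, -1.21 in D-).

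Of 25 genes of the cAMP pathway 1 was called with D- above WT and 2 below (12%), and of 18 immediate CREB targets 2 and 2 (22.2%), against 12.3% of all genes. Without replicate 2 of WT at 24 h no cAMP pathway gene and 1 CREB target was called, and with the replicate or cluster block the pathway had 1 gene above and 5 below. Rgs2, a regulator of G proteins, rose by 4.78 in WT and 4.65 in D-, with a difference of -0.13 ± 0.47 (limma adjusted p = 0.912). The regulatory subunit gene Prkar1a rose by 0.86 and 0.90 (difference 0.03 ± 0.15, limma adjusted p = 0.922), and the catalytic subunit gene Prkaca had changes of -0.17 and 0.11. Foxo1, Nr3c1 (the glucocorticoid receptor), Tsc22d3 (GILZ) and Pdcd4 likewise had differences of -0.34, 0.14, 0.05 and 0.12, none called. In the list of 19 glucocorticoid-responsive genes 1 was called in each direction (10.5%, against 12.3% of all genes). They were Fkbp5 (-1.72 in WT, -0.05 in D-) and Bcl2l11.

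Crem, which encodes the feedback repressor ICER, was damped. It read 4.26, 4.17, 4.32 and 4.19 untreated and 9.73, 10.40 and 9.50 treated in WT, and 4.60, 4.15, 4.36 and 4.31 untreated and 5.53, 8.59 and 7.68 treated in D-. The treated D- arrays spread over 3 log2 units, all below the treated WT arrays. The rise was at least 4.88 in WT and at least 2.27 in D- (fitted difference -2.73 ± 0.71, limma adjusted p = 0.0131), and within the second array cluster the difference was -1.89 with an adjusted p of 0.0712. A second probe set rose by 3.34 in WT and 1.75 in D-, with a difference of -1.59 ± 0.66 that was not called (limma adjusted p = 0.132). On the first probe set the fitted rises at 6 h had been 5.53 and 4.42. Junb and the phosphodiesterase gene Pde1b were lost (1.93 against 0.16 and 2.32 against 0.81). Neither call held with the 14 arrays alone. Both also went without replicate 1, 2 or 3 of untreated D-, without replicate 1 or 2 of untreated WT, and without some treated arrays. Nr4a1, an orphan nuclear receptor, was amplified, with 0.84 in WT and 2.33 in D- (difference 1.49 ± 0.41, limma adjusted p = 0.0192, 1.02 and 0.118 within the second array cluster).

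Among damped inductions Ctla4, an inhibitory receptor of T cells, read 6.76, 5.72, 6.33 and 7.35 untreated and 11.00, 11.80 and 11.22 treated in WT, and 5.45, 4.73, 5.51 and 5.55 untreated and 7.92, 8.61 and 7.68 treated in D-. Treated D- arrays were above all untreated arrays and below all treated WT arrays (difference -2.04 ± 0.55, limma adjusted p = 0.0172). Abcb1a, a P-glycoprotein drug exporter, rose by 4.42 in WT and 2.39 in D-, after rises at 6 h of 3.89 and 3.52. Emb, embigin, rose by 2.94 and 1.12, and Dgka, which removes the second messenger diacylglycerol, by 3.21 and 1.27. Vps37b of the ESCRT machinery rose by 3.94 and 1.46, and the phospholipase gene Pafah2 by 2.86 and 0.78. Lgals7, galectin 7, and the receptor Adgrg3 rose by 4.41 and 3.94 in WT and by at least 0.66 and 1.27 in D-, where both started under log2 5.

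Of 39 lysosome and autophagy genes 6 were called with D- below WT and 0 above (15.4%, against 5% of all genes below), although the list's medians were 0.53 in WT and 0.50 in D-. The acid lipase Lipa had the largest difference, with rises of 2.52 and 0.62, and the autophagy gene Gabarapl2 rose by 0.99 in WT against 0.12 in D-. The number of lysosome genes called with D- below WT lay between 2 and 9 when single arrays were left out, with 2 without replicate 2 or 3 of treated WT and 9 without replicate 1. Among 24 cytokine receptor and JAK-STAT genes 1 was called (4.17%, against 12.3% of all genes), Stat5b. It rose by 1.60 and 1.02, and its second probe set gave a difference of 0.20. The 1 call of 22 cholesterol genes (4.55%) was Insig2 (rose by 1.37 and 0.57).

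**Figure D4:**
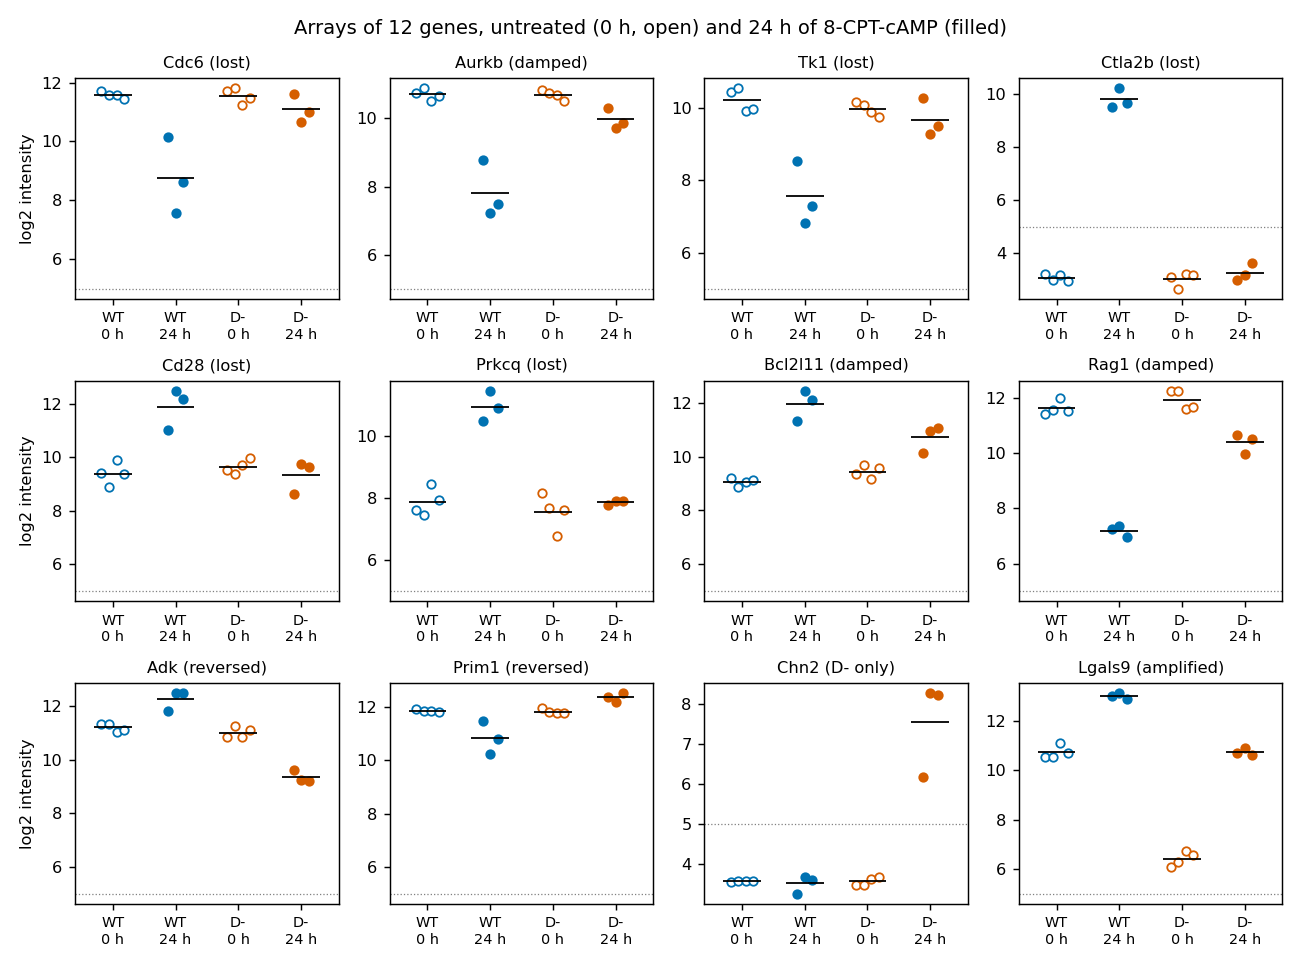
Log2 intensity of 12 genes on the 14 arrays, with WT in blue and D- in orange, untreated arrays open and arrays at 24 h filled, a black bar at each group mean and a dotted line at log2 5 where it falls in the panel. For Cdc6, Tk1, Cd28 and Prkcq treated and untreated D- arrays overlap while treated WT arrays stand apart, and for Adk and Prim1 the treated arrays of the 2 lines lie on opposite sides of the untreated ones.

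The 34 reversed genes were 21 that fell in WT and rose in D- and 13 that rose in WT and fell in D-. Adk, adenosine kinase, which clears adenosine, had the largest difference among those above log2 5 in all groups. It read 11.33, 11.34, 11.04 and 11.10 untreated and 11.82, 12.47 and 12.47 treated in WT, and 10.85, 11.24, 10.83 and 11.10 untreated and 9.62, 9.23 and 9.19 treated in D-. Each treated WT array was above, and each treated D- array below, every untreated array of either line, with changes of 1.05 and -1.66 and a difference of -2.71 ± 0.27 (limma adjusted p = 1.48e-06). Another probe set gave a difference of -2.82, and the other one gave -0.48 and was not called. Also higher in WT and lower in D- were the transcription factor gene Klf7 (0.94 and -0.58), the interferon-inducible Mndal (0.90 and -0.78), Ahcyl2 (0.58 and -0.79), the magnesium transporter gene Slc41a1 (0.79 and -0.42), the ER mannosidase gene Edem3 (0.62 and -0.59) and Impact, an inhibitor of the stress kinase GCN2 (0.45 and -0.69). The other probe sets of Ahcyl2 gave differences of -0.38 and -0.43, neither called.

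In the opposite direction Wdr33, a subunit of the polyadenylation complex, read 9.62, 9.85, 9.67 and 9.58 untreated and 9.01, 9.07 and 9.14 treated in WT, and 9.61, 9.59, 9.71 and 9.84 untreated and 11.15, 10.59 and 11.13 treated in D-. Its treated arrays lay below all untreated ones in WT and above all of them in D- (difference 1.88 ± 0.20, limma adjusted p = 4.26e-06). Agfg2 changed by -1.58 in WT and 0.69 in D-, the kinetochore gene Ska2 by -1.37 and 0.47, the microtubule-binding gene Mdm1 by -0.82 and 0.97, the tRNA methyltransferase gene Mettl6 by -0.54 and 1.20, Wdr90 by -0.69 and 0.89 and the laminin receptor subunit Itga6 by -0.53 and 0.71. Gli1, the effector of Hedgehog signalling, reached log2 5 in treated D- alone, a rise of at least 1.63, and its values in WT lay under 5 in both groups, so that its fall there is a fitted value only. Of 25 other probe sets of reversed genes, 25 had a difference of the same sign and 19 were called.

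D- only responses were 41 genes with D- above WT and 26 with D- below. Chn2, a GTPase-activating protein for Rac, read 3.56, 3.58, 3.57 and 3.59 untreated and 3.26, 3.69 and 3.61 treated in WT, and 3.49, 3.47, 3.64 and 3.69 untreated and 6.19, 8.27 and 8.22 treated in D-. Of the 14 arrays it was above log2 5 on the 3 treated D- arrays alone, a rise of at least 2.56, and replicate 1 was lower than the other 2. Its call rests on the group in which it is high. Lrrc42 rose by 1.55 in D- against -0.07 in WT, the actin-binding gene Palld by 1.49 against -0.28, the extracellular matrix gene Fbln1 by 1.30 against -0.44, the lipase gene Lipg by 1.86 against 0.28 and the chaperone gene Dnajb4 by 1.25 against -0.41. Arsi, a sulfatase, rose by 1.36 against -0.05 (limma adjusted p = 0.0249).

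Nfkbie, an inhibitor of NF-kB, rose by 2.48 in D- from a lower untreated level than in WT (5.22 against 6.56), and the treated arrays of the lines overlapped. It was the 1 call of 15 NF-kB subunits and inhibitors (6.67%), in which Tnfaip3 had a fitted difference of -1.24 ± 0.42 (limma adjusted p = 0.0569). Mx1, an interferon-induced antiviral GTPase, read 5.37, 5.66, 5.33 and 5.63 untreated and 6.39, 7.38 and 7.64 treated in D- and between 5.05 and 5.66 on untreated and 24 h WT arrays, and was the 1 call of 28 interferon-inducible genes (3.57%, against 12.3% of all genes). With array weights the list had 3 calls above and 9 below, and within the second array cluster 1 and 7. The list had medians of 0.99 in WT and 0.47 in D-, and Iigp1, which rose by at least 1.61 in WT and was under log2 5 in D-, missed the threshold (limma adjusted p = 0.0805).

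Among D- only genes that fell, the transcription factor gene Ets2 read 9.93, 10.61, 9.64 and 9.83 untreated and 10.50, 10.29 and 10.56 treated in WT, and 10.69, 11.10, 10.49 and 10.49 untreated and 8.06, 9.15 and 8.94 treated in D-. The treated D- arrays lay below all others, with a fall of 1.98 ± 0.37 (SE) and a difference of -2.42 ± 0.52 (limma adjusted p = 0.00332). Klhl2, an adaptor of a ubiquitin ligase, fell by 1.72 in D-, and its WT change was a rise of 0.13 that was not called. Dap fell by 1.20 in D-, with a WT change of 0.51 upwards that was not called. Rdh10 (retinol dehydrogenase), Zmat3 and the matrix gene Fbln2 fell in D- from untreated levels above those of WT (9.23 against 8.06, 7.82 against 6.83, and 6.69 against 3.99). Their treated means were 8.26 in D- and 8.25 in WT for Rdh10, and 6.60 and 6.78 for Zmat3.

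Amplified responses were 30 genes with D- above WT and 8 below. Lgals9, galectin 9, which binds surface glycans of T cells, read 10.56, 10.56, 11.12 and 10.71 untreated and 13.03, 13.12 and 12.91 treated in WT, and 6.08, 6.27, 6.74 and 6.58 untreated and 10.69, 10.90 and 10.63 treated in D-. Its rise was 2.28 in WT and 4.32 in D- (difference 2.04 ± 0.24, limma adjusted p = 1.49e-05), and the larger rise in D- started from a level lower by 4.32 and ended within the range of untreated WT. Lmna, the A-type lamin, likewise rose by 3.94 in WT and, from a mean under log2 5, by at least 4.81 in D-. Agtpbp1, a tubulin deglutamylase, rose by 0.45 and 2.25, Armc7 by 1.07 and 2.90, the AP-1 family repressor Jdp2 by 0.91 and 2.06, and Atp5h of the ATP synthase by 0.20 and 0.75.

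Chst1, a carbohydrate sulfotransferase gene, and the deiodinase gene Dio1 were above log2 5 in treated D- alone, with rises of at least 3.92 and 1.29. Amplified falls were those of the choline dehydrogenase gene Chdh (-3.17 in WT, -4.79 in D-), the Wnt inhibitor Apcdd1 (-0.61 and -2.57), Inafm2 (-0.96 and -2.31) and the semaphorin receptor Nrp1 (-1.78 and -3.06). The 6 genes called for the difference alone included Cbfa2t3, a transcriptional corepressor, with -0.74 in WT and 0.77 in D-, and the ADP/ATP carrier gene Slc25a4, with 0.21 and -0.24.

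Untreated levels of damped and lost genes were alike on the median. The median of untreated D- minus untreated WT was -0.01 for lost and -0.00 for damped genes, and 372 of 7435 genes (5%) differed between untreated lines. Among genes named above, Dgka was lower in untreated D- by a difference of -1.21, and every untreated D- array of Ctla4 lay below every untreated WT array. Lgals7, Adgrg3, Naip5 and Cd247, with means of 7.07, 5.40, 5.51 and 9.34 in untreated WT, averaged under 5 in untreated D-. Where several probe sets measured a called gene, 493 of 540 others (91.3%) had a difference of the same sign, 249 were called in the same direction and 0 in the opposite one.

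Of 143 genes named here, 126 were called for the difference, and 26 of these lost the call when some single array was left out. Without replicate 2 of WT at 24 h 25 genes were no longer called, with limma adjusted p between 0.0507 and 0.163: Arsi, Atf6, Cbfa2t3, Ccnd3, Cd247, Crem, Ctla4, Cxcr6, Gabarapl2, Junb, Mlxip, Nolc1, Nrp1, Pa2g4, Pde1b, Psat1, Rdh10, Rfc3, Sesn1, Slc25a4, Stat5b, Trp53inp1, Tsc22d1, Ung and Vars. The other one, Insig2, lost its call without replicate 1 of D- at 24 h, as did 19 of those 25, with adjusted p between 0.0516 and 0.138. Without replicate 3 of WT at 24 h 18 genes were no longer called, and without single untreated arrays 4 to 8 genes. No named gene that was called changed direction in any of 27 alternatives.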

How the data were processed

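RNA of S49 cells was measured on 26 single-colour Affymetrix arrays. The values are linear intensity per probe set as deposited by the authors, processed with GCRMA per the submitters' processing notes (its version is not given in the sources used here). They ranged from 2 to 83530.7, and array medians of log2 intensity from 5.38 to 5.504. Titles of treated WT arrays read untreated with a time, and groups were taken from the descriptions, which say treated. Probe sets naming several genes or none, and 64 control probe sets, were given no gene name.

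Log2 values of 12724 probe sets with at least 5 on at least 3 arrays were fitted by limma 3.58.1 in R 4.3.3, with 8 groups, 18 residual and 3.34 prior degrees of freedom. Each gene was represented by its brightest probe set on average. Tables and figures were made with Python 3.11.15. The number of arrays limits the precision: on simulated data the fit recovered 11.9%, 56.7% and 95.5% of differences of 0.5, 1 and 2, with 9 false calls. The simulated noise was independent between arrays and lacked the axis that separates the 2 array clusters, so these numbers need not hold for the real arrays.

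A group mean under 5 was taken as 5 for a bound on a change. Named genes came from a pool of called genes with the same sign on every treated D- array: the 8 largest differences per class and direction with all group means at 5 or more, the 3 largest per class with a group mean under 5, the 4 largest of each list, called or not, and 20 listed genes; 143 of the 230 are named, a choice made with their values known. The genes and lists were chosen with earlier results of these data known. Promoter sequences came from RefSeq on GRCm38.p6, with windows for 6109 of 7435 genes. Alternatives changed the normalization, the filter, the probe set, the arrays used, array weights, blocks, class rules and single arrays. No results at 2 and 6 h other than those named were used.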

Additional observations from a re-analysis of the deposited data

Results flagged for a closer look

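In groups of 4 untreated arrays 1 array stood apart from the other 3 for 14 of 286 combinations of a named gene and a line, by Dixon's test at its 95% critical value. Chance gives about 1 in 20. In D- the highest array read 13.29 for Rrm2 (others 13.09 to 13.12), 10.42 for E2f8 (10.11 to 10.16), 5.99 for Pafah2 (5.57 to 5.64), 8.69 for Insig2 (8.44) and 8.62 for Ska2 (8.37 to 8.41). The lowest D- array read 7.39 for Ugcg (7.64 to 7.69), 4.73 for Ctla4 (5.45 to 5.55), 9.73 for Stk17b (10.09 to 10.14), 9.28 for Ahcyl2 (9.60 to 9.66) and 3.34 for Lmna (4.00 to 4.03). In WT the lowest array read 6.86 for Cers4 (7.14 to 7.19), 9.90 for Chdh (10.08 to 10.11) and 3.02 for Iigp1 (3.68 to 3.69), and the highest read 8.88 for Slc41a1 (8.39 to 8.41).

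The lines differed in the test of the interaction for 267 damped, 504 lost, 34 reversed, 67 D- only and 38 amplified genes and for 6 genes called in neither line alone.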

How the results depend on the processing

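Over all 4 groups the replicate numbers were not taken as a pairing, since correlations of same-numbered arrays lay between -0.385 and 0.501, with 13 of 18 over 0.1. Between the 2 treated groups all 3 were over 0.1 (0.501, 0.422 and 0.295), and 7 of 12 arrays matched their own number best. The correlations below 0, from -0.385 to -0.232, all joined replicate 2 of an untreated group to replicate 2 of a treated group. Those arrays lie in different array clusters, and the main fit had no block for cluster or replicate. With the replicate block 2139 probe sets were called for the difference, 433 genes were damped and 11 were in neither class of single-line calls. The cause of the changes given here was not tested. With the array cluster as a block the counts were 2565 probe sets, 568 damped, 64 reversed, 127 D- only, 68 amplified and 11 neither. This block was taken from the variation within groups of the same arrays, so it lowers that variation by construction. Array weights gave 3084 probe sets, 672 damped, 832 lost, 67 reversed, 151 D- only, 87 amplified and 17 neither. Within array cluster 2 they were 2277, 462 damped, 68 reversed, 130 D- only and 60 amplified. Within array cluster 1, with few arrays, they were 5 for the difference, 3631 for WT, 826 for D-, 0 damped, 3 lost, 0 reversed, 1 D- only, 0 amplified and 0 neither. With the 14 arrays alone 1042 probe sets were called, 152 genes damped, 22 amplified and 1 neither. Median centring gave 3 neither. The mean of all probe sets gave 4078 calls in WT and 2683 in D- among 7435 genes, and 3 neither. Classes by the size of the D- change over the WT change gave 280 damped, 205 lost, 60 reversed and 9 amplified. They cover only the 554 genes called for the difference and in WT with a change of at least 1, not all 916. With differences of at least 1 alone there were 124 damped, 264 lost, 28 D- only, 17 amplified and 1 neither, and a stricter rule (adjusted p under 0.01, difference at least 1) called 561. Quantile normalization put 54.7% of calls above 0, against 60.2%. With single arrays left out the ranges were 962 to 2352 for the difference, 5781 to 6787 for WT, 3084 to 4460 for D-, 174 to 521 damped, 320 to 690 lost, 21 to 47 reversed, 53 to 91 D- only, 23 to 43 amplified and 1 to 15 neither. Of the 126 named genes called, 125 lost the call within cluster 1 and 7 within cluster 2.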
